A study of Mus musculus with 8 samples.

Results

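Brown adipose tissue (BAT) burns fuel to make heat, and it also secretes proteins that act on the heart, liver, vessels, nerves and other fat depots. Those described here are 9 secreted factors of brown fat, sometimes called batokines, and the growth factors among them: Fgf21, Nrg4, Bmp8b, Il6, Gdf15, Slit2, Angptl4, Igf1 and Metrnl. Each factor is released into the blood or the surrounding tissue, binds a receptor or an enzyme, and is limited by binding proteins and by proteases that process it. Some are made mainly by the brown adipocyte (Nrg4, Bmp8b), and others are also made in quantity by macrophages, fibroblasts, muscle or liver (Il6, Gdf15, Igf1, Metrnl, Fgf21). The 9 genes were chosen by name, and every probe whose transcript accession belongs to one of them was taken. They have 14 of the 55681 probes on the array. A probe was tested when it was well above the local background on at least 3 of 7 arrays, which 10 of the 14 member probes were, standing for 6 of the 9 genes. For comparison, 33359 probes were tested in all, for 14989 of the 21154 genes with a probe.

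RNA came from BAT of male C57BL/6NCrSlc mice that were operated at 11 weeks of age and sampled at 13 weeks. One group of 4 had thoracic aortic constriction (TAC), which narrows the aorta and overloads the left ventricle, and the other group of 4 had a sham operation (Sham). All mice were kept at 23 °C on normal chow, and no genetic change is given for either group. The source names put the collection at 2 weeks from the operation, as the ages do, whereas the sample descriptions say 4 weeks. Each mouse gave 1 one-colour array. Scanner values with background flags were used for the 4 TAC arrays and for Sham 2, Sham 3 and Sham 4, and a deposited table without flags covered all 8 arrays. Values below are log2 intensities relative to the 75th percentile of the same array, so that 0 is the level of that percentile. They can be set side by side between arrays for 1 probe, but not between probes.

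The tissue label was borne out by its defining genes, since all 11 brown adipocyte markers, Ucp1 among them, were well above background on the 7 arrays. By its brightest probe, each of the 11 had a lower TAC mean, with a median difference of -0.21. Another tested probe of Ppargc1a and another of Ppara went the other way. Of all probes tested, 44.15% had a higher TAC mean. Ppargc1a differed by only -0.0090. It was at 2.23 on TAC 1 and 2.96 to 3.71 on the other TAC arrays, against 2.28 to 3.55 in Sham. Ucp1 lay below Sham on every TAC array, in 7 and in 8 arrays, as did 10.5% and 6.30% of all probes tested. The Ucp1 difference was -0.61 ± 0.21 (SE) with an adjusted p of 0.336. The array of TAC 1 differed most from the rest. Over 7 arrays its score on the leading principal component (39.3% of the variance) was 89.6. The remaining TAC arrays scored -8.58 to 3.58, and Sham 2, Sham 3 and Sham 4 scored -32.6 to -20.2. In the table of 8 arrays, Sham 1 scored among TAC 2, TAC 3 and TAC 4, which ran from -7.36 to 4.53. The summed level of 10 macrophage markers, on the linear scale and relative to the 75th percentile, was 90.3 on TAC 1 against 37.6 to 44.7 on the other TAC arrays and 44.9 to 47.0 in Sham, and each of the 10 was well above background on at least 6 arrays. That of 9 lymphocyte markers was 14.2 on TAC 1 against 4.43 to 5.16 and 4.60 to 5.20. The summed level of 9 skeletal muscle markers ran from 25.5 to 97.6 in Sham and from 33.6 to 157 in TAC, and each of the 9 genes had a higher TAC mean. All arrays were on 1 slide, with the Sham and TAC arrays in separate rows, so that place on the slide and surgery cannot be told apart. The series describes the 4 samples of a group as independent.

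None of the 10 member probes tested passed an adjusted p of 0.05 with limma, a linear model with a spread estimate shared across probes. None of all probes tested passed either, so the share called was 0% in each direction. Over the 7 arrays Angptl4 was the only member with an unadjusted p under 0.05. It was higher in TAC, a direction in which 4.38% of all probes reached that level, and no member was lower at that level, against 8.43% of all probes. With 1 of 10 member probes in the higher direction, the count is near the background. In the table of 8 arrays 1 member probe was higher and 0 were lower at that level, against 4.65% and 9.56% of probes. Without TAC 1, 1 was higher (Angptl4) and 1 lower (the dimmest Igf1 probe), against 4.68% and 8.45%. Without TAC 4, 3 were higher, Angptl4 and the 2 brightest Igf1 probes, against 3.61% of probes. Without TAC 2, 1 was lower, the second Nrg4 probe, against 8.97%. With no filter on dim probes 2 were lower, Fgf21 and Bmp8b, against 6.05%. Among the 6 genes, 3 had a higher and 3 a lower TAC mean, and their median difference was 0.058, against -0.032 over all probes. What the data give for these genes is therefore mainly their levels per mouse and the bounds on how far they could have moved.

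**Figure D1:**
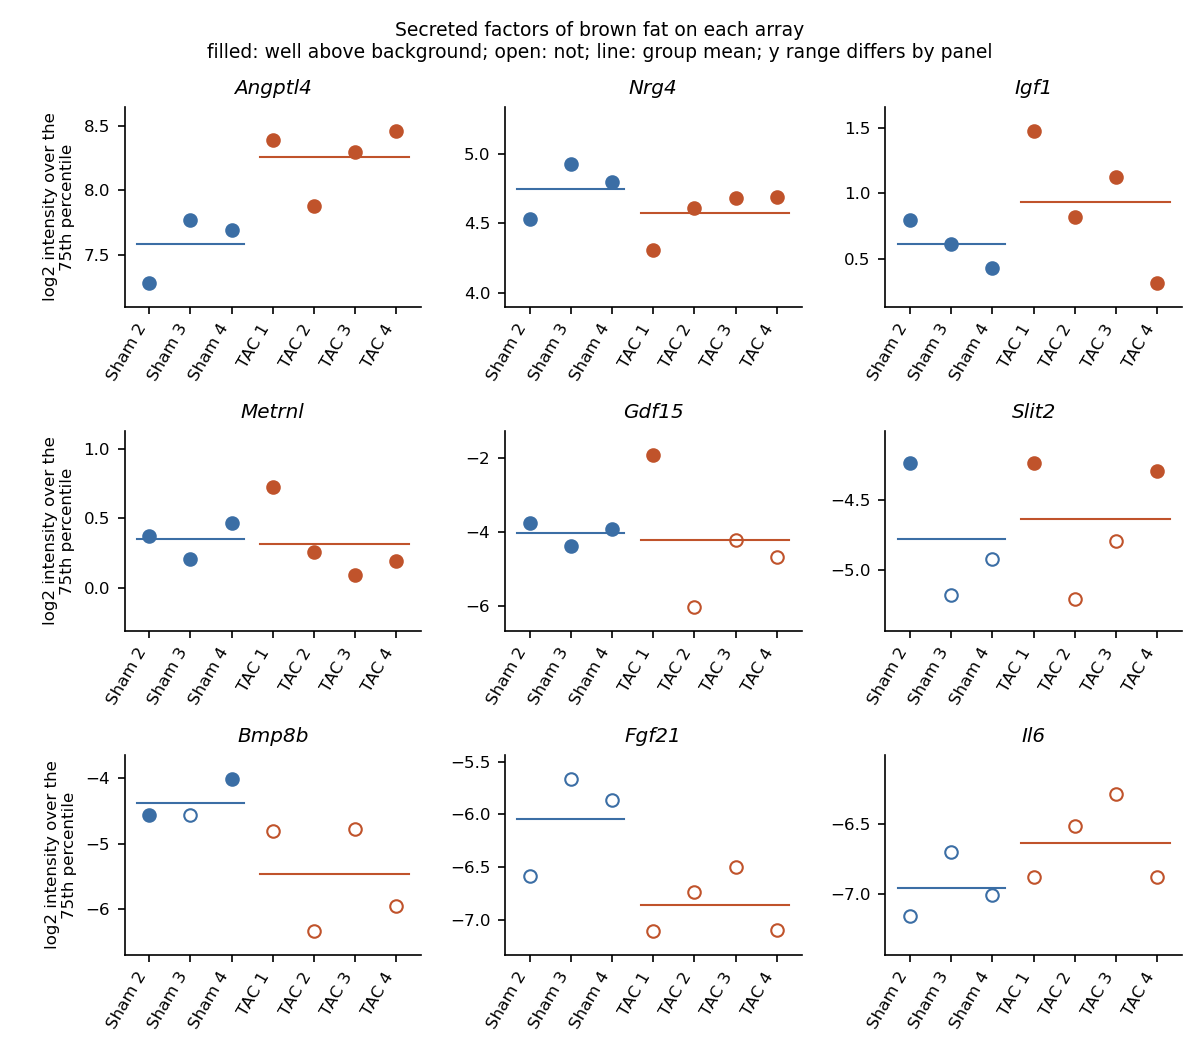
Log2 intensity relative to the 75th percentile of the array (vertical axis, own range in each panel) of the 9 secreted factors on 3 Sham and 4 TAC arrays (horizontal axis). Each point is 1 mouse, filled where the probe was well above background and open where it was not, and the lines are group means. The Angptl4 points of TAC all lie above those of Sham, Gdf15 is high on TAC 1 alone, and Fgf21 and Il6 are open throughout.

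Angptl4 encodes a secreted inhibitor of lipoprotein lipase, the enzyme that releases fatty acids from circulating triglycerides for uptake by fat and muscle. Its level was 7.29, 7.77 and 7.69 on Sham replicates 2 to 4. On TAC replicates 1 to 4 it was 8.39, 7.88, 8.30 and 8.46. Every TAC array lay above every Sham array, as did 5.59% of all probes tested, the nearest arrays being TAC 2 and Sham 3. The means were 7.58 ± 0.26 (SD, n = 3) in Sham and 8.26 ± 0.26 (SD, n = 4) in TAC. The difference of 0.67 ± 0.18 (SE) corresponds to 1.59-fold more signal in TAC, with a 95% interval from 0.25 to 1.097 on the log2 scale. Its unadjusted p was 0.00713 and its adjusted p 0.255, so it did not pass the test across all probes. Because RNA came from whole tissue, more cells of a type and more RNA per cell cannot be told apart here.

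The scanner units of the Angptl4 spot ran from 94229 to 111202 in Sham and from 117691 to 202285 in TAC, and none was marked as saturated. The table of 8 arrays adds Sham 1, at 7.94, inside the range of the other Sham arrays (7.49 to 7.96 in that table, where values sit 0.17 to 0.21 higher by array). The 4 TAC arrays ran from 8.06 to 8.63 there, so that all 4 again lay above all 4 Sham arrays, as did 3.53% of probes. The difference over 8 arrays was 0.62. With each array left out in turn it stayed between 0.52 and 0.80, and without TAC 1 it was 0.63, so the difference does not rest on that array. The levels on TAC 1, 3 and 4 were alike, while TAC 2 was closest to Sham.

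The partners of Angptl4 were looked at next. Lpl, the lipase that Angptl4 inhibits, differed by 0.070 ± 0.14 (SE), with an adjusted p of 0.845. Gpihbp1, which carries the lipase to the capillary wall, differed by 0.22 ± 0.12, with an adjusted p of 0.467. Lmf1, needed for the folding of the lipase, differed by 0.070 ± 0.12, and its second probe went the other way. Angptl8, whose protein partners with Angptl4, was at 3.82, 4.13 and 3.88 in Sham and at 2.25, 3.40, 3.29 and 3.27 in TAC. It lay below Sham on every TAC array, farthest on TAC 1, with a difference of -0.90 ± 0.29 (SE), an unadjusted p of 0.0161 and an adjusted p of 0.306. In the table of 8 arrays the groups did not overlap either. Of all probes tested, 10.5% lay below Sham on every TAC array in 7 arrays and 6.30% in 8. Angptl8 did not pass the test.

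Pcsk5 encodes a proprotein convertase, one of the proteases that cut precursors of secreted proteins. It was at 0.97, 0.54 and 1.13 in Sham and at 2.08, 1.41, 1.64 and 1.30 in TAC. All TAC arrays lay above Sham, in 7 and in 8 arrays, as did 5.59% and 3.53% of all probes tested. The difference was 0.73 ± 0.22 (SE), with an unadjusted p of 0.0134 and an adjusted p of 0.294. Furin, a convertase of the same family, differed by -0.062 ± 0.12.

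**Figure D2:**
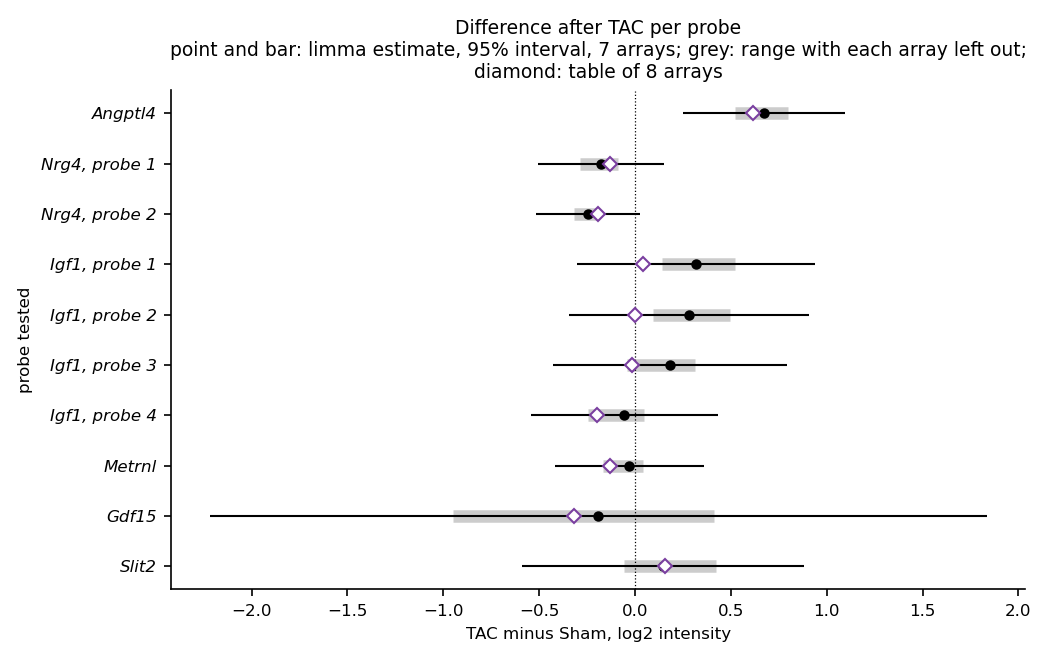
TAC minus Sham of the 10 member probes tested (vertical axis) on the log2 intensity scale (horizontal axis). Black points and bars are the limma estimates with 95% intervals from 7 arrays, grey bands the range of the estimate with each array left out in turn, and diamonds the estimate from the table of 8 arrays. The Angptl4 interval, 0.25 to 1.097, lies above 0, and those of the other 9 probes include 0.

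Nrg4 encodes neuregulin 4, a growth factor of the EGF family that brown adipocytes release and that acts on ErbB4 and ErbB3 receptors in liver and nerve. It has 2 probes, both well above background on every array. The first was at 4.53, 4.93 and 4.80 in Sham and at 4.31, 4.61, 4.69 and 4.69 in TAC. The second was at 4.58, 4.68 and 4.70 in Sham and at 4.23, 4.62, 4.48 and 4.30 in TAC. TAC 1 was the lowest array for both probes, and the groups overlapped for both, with Sham 2 among the TAC values. The first differed by -0.18 ± 0.14 (SE) with an adjusted p of 0.613, and the second by -0.25 ± 0.11 with an adjusted p of 0.426. Without TAC 2 the second had an unadjusted p of 0.0228, with a difference of -0.32. The intervals reached from -0.51 to 0.15 and from -0.52 to 0.024. Without TAC 1 the differences were -0.088 and -0.19. The mean of the 11 brown adipocyte markers was also lowest on TAC 1, at -1.42 relative to the Sham mean on the log2 scale, against -0.65 to -0.084 on the other TAC arrays. Its part in the Nrg4 values was not tested.

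Igf1 encodes insulin-like growth factor 1, which growth hormone induces and which acts on the Igf1r receptor, with macrophages and fibroblasts among its sources in fat. Its 4 probes, with 2 spots each, were well above background. The brightest was at 0.80, 0.62 and 0.43 in Sham and at 1.47, 0.82, 1.12 and 0.32 in TAC. TAC held both the highest and the lowest array. The difference was 0.32 ± 0.26 (SE) with an adjusted p of 0.626 and an interval from -0.30 to 0.94. The other probes differed by 0.28, 0.18 and -0.055, with adjusted p between 0.667 and 0.925. TAC 1 was the highest of the 7 arrays for all 4 probes, and without it the brightest probe differed by 0.14. TAC 4 was the lowest for all 4, and without it the 2 brightest probes differed by 0.52 and 0.49, with unadjusted p of 0.0350 and 0.0389.

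Sham 1, covered only by the table, was the highest of the 8 arrays for the brightest Igf1 probe. In that table the Sham arrays were at 1.86, 1.004, 0.81 and 0.62 and the TAC arrays at 1.66, 0.997, 1.31 and 0.49. The difference shrank to 0.040 over 8 arrays, and with TAC 1 left out of the table it was -0.14. Which group had the higher Igf1 level thus turned on these mice, with Sham 1 and TAC 1 both high. The macrophage marker mean, in the same table, was 0.097 above the Sham mean on Sham 1 and 0.96 above it on TAC 1. On the other Sham arrays it ran from -0.20 to 0.15. The fibroblast marker mean was 0.092 above the Sham mean on Sham 1, 0.53 above it on TAC 1 and lowest on TAC 4, at -0.34. The part of macrophage or fibroblast markers in the Igf1 values was not tested.

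**Figure D3:**
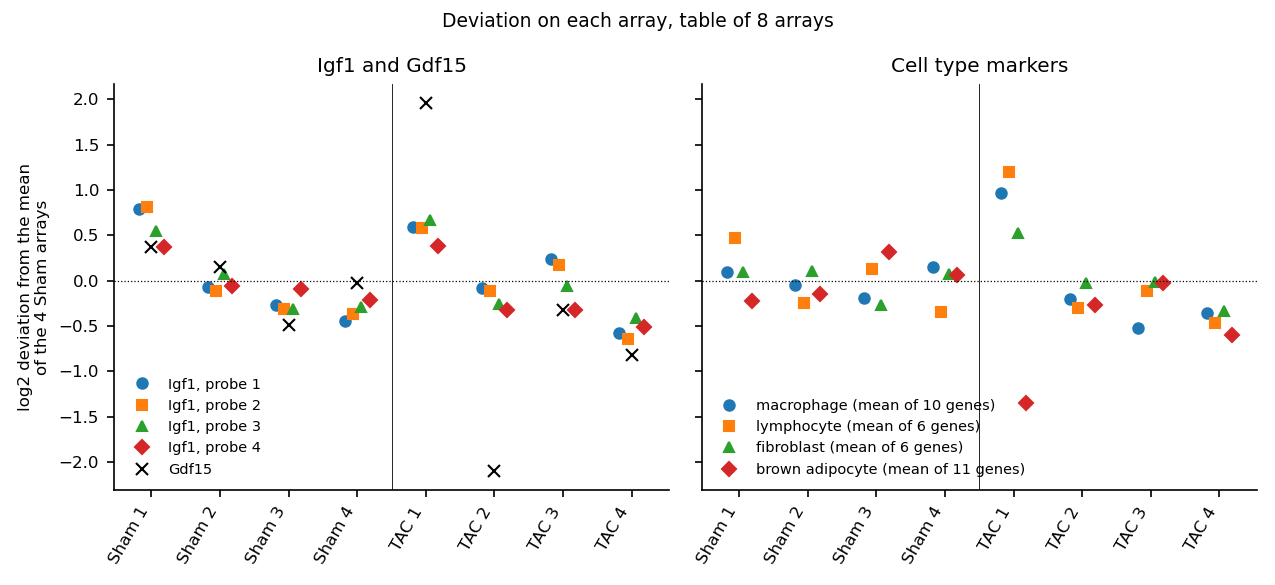
Log2 deviation from the mean of the 4 Sham arrays (vertical axis) on each array of the table of 8 arrays (horizontal axis). Left, the 4 Igf1 probes and Gdf15, and right, the means of macrophage, lymphocyte, fibroblast and brown adipocyte markers. Igf1 is high on Sham 1 and TAC 1. The macrophage mean is highest on TAC 1, 0.96 above Sham, and the brown adipocyte mean is lowest there.

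Around Igf1, the receptor gene Igf1r differed by -0.057 ± 0.11 (SE). Of the binding proteins that carry the factor, Igfbp3 differed by 0.59 ± 0.32 with an adjusted p of 0.480, Igfbp4 by 0.030 and Igfbp5 by -0.031, and the groups overlapped for each. Ghr, the growth hormone receptor, differed by 0.25 ± 0.13 with an adjusted p of 0.481. Cish, a suppressor of cytokine signalling that growth hormone induces through Stat5, had the largest difference in the 4 lists of related genes. It was at 3.82, 3.43 and 2.54 in Sham and at 2.30, 2.13, 1.45 and 1.08 in TAC. Every TAC array lay below Sham, in 7 and in 8 arrays, as did 10.5% and 6.30% of all probes tested. The difference was -1.53 ± 0.40 (SE), with an unadjusted p of 0.00614 and an adjusted p of 0.247. Socs2, another gene that growth hormone induces through Stat5, was at 0.75, 0.65 and 1.49 in Sham and at -0.04, 0.88, 0.74 and 0.08 in TAC, so that its groups overlapped, with a difference of -0.55 ± 0.30 and an adjusted p of 0.484.

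Gdf15 encodes a stress-induced member of the TGF-beta family that acts on the brain through the receptor Gfral. It was close to the detection limit. It was at -3.75, -4.36 and -3.91 in Sham, each well above background, and at -1.92, -6.01, -4.20 and -4.67 in TAC, where only TAC 1 was well above background. In scanner units these were 22.1 to 44.9 in Sham, 160 on TAC 1, and 7.77 to 29.9 on the other TAC arrays. TAC 1 was thus above and TAC 2 and TAC 4 below every Sham array. The difference was -0.19 ± 0.86 (SE), with an adjusted p of 0.939. It rests on 3 TAC values that were not well above background and so have no firm level. A single array set its sign and size, since it was -0.95 without TAC 1 and 0.41 without TAC 2. Sham 1 was at -3.32 in the table, the highest of Sham and below TAC 1 at -1.73. The macrophage and lymphocyte markers were highest on TAC 1 as well, as given above, and their part in the Gdf15 value there was not tested.

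Metrnl encodes meteorin-like, a secreted protein of fat and muscle linked to browning and to alternatively activated macrophages. Its first probe was at 0.37, 0.20 and 0.47 in Sham and at 0.72, 0.26, 0.09 and 0.19 in TAC. TAC 1 was the highest array and TAC 3 the lowest, so that the Sham values lay within those of TAC. The difference was -0.030 ± 0.16 (SE) with an adjusted p of 0.950, and the interval from -0.42 to 0.36 limits a change to about that size. A second probe was not well above background on any array. On TAC 1 the summed muscle and macrophage markers were both at their highest, at 157 and 90.3. The next highest were 154 for muscle, on TAC 4, and 47.0 for macrophages, on Sham 4. Their part in the Metrnl values was not tested.

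Slit2 encodes a secreted guidance protein, of which a cleaved fragment from beige fat promotes heat production. It was dim, at -4.23, -5.19 and -4.92 in Sham and at -4.23, -5.21, -4.79 and -4.29 in TAC. It was well above background on Sham 2, TAC 1 and TAC 4 and not on the other 4 arrays. The difference was 0.15 ± 0.31 (SE) with an adjusted p of 0.861, and it rests mostly on values that were not well above background. Its receptor gene Robo1 differed by 0.19 ± 0.14, with an adjusted p of 0.572 and overlapping groups.

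Bmp8b encodes a bone morphogenetic protein that brown adipocytes make when activated and that raises their response to noradrenaline. Its probe missed the filter. It was at -4.57, -4.56 and -4.02 in Sham, well above background on 2 of the 3 arrays, and at -4.80, -6.33, -4.78 and -5.95 in TAC, not well above background on any. All TAC arrays lay below all Sham arrays, also with Sham 1, at -4.51 in the table of 8 arrays. Among the probes tested, 10.5% lay that way in 7 arrays and 6.30% in 8. With each TAC array set at the higher of its own value and the lowest value well above background there, Sham was 1.19-fold higher. This is no firm bound, since Sham 3, at 19.2 scanner units, was itself not well above background. Nor was TAC 1, at 21.7 units, though the lowest probe well above background there had 20.5. No error was estimated for this fold. The measured means were -4.38 ± 0.31 (SD, n = 3) and -5.47 ± 0.79 (SD, n = 4), and with no filter on dim probes the adjusted p was 0.499. Its close relative Bmp8a, measured by its own probe, differed by 0.046 ± 0.094 (SE).

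Fgf21, a hormone of fasting and cold that acts through Fgfr1 with its co-receptor beta-Klotho, was not well above background on any of the 7 arrays, at 3.61 to 9.23 scanner units. Il6, a cytokine that signals through Il6ra and gp130, was not well above background either, at 4.17 to 7.05 units. For comparison, the lowest probe well above background had 14.9 to 28.0 units, depending on the array. No fold is given for either gene. Their receptor genes were measured. Klb, for beta-Klotho, differed by -0.18 ± 0.16 (SE) and Fgfr1 by -0.074 ± 0.096. Il6ra differed by 0.14 ± 0.13 and Il6st, for gp130, by 0.049 ± 0.089. The groups overlapped for all 4 receptor genes, with adjusted p between 0.654 and 0.831. Socs3, which Il6 and other cytokines induce, was at -0.49, -0.55 and -0.65 in Sham and at -0.83, -0.80, -0.92 and -1.31 in TAC. It lay below Sham on every TAC array, as did 10.5% of all probes tested, by -0.41 ± 0.14 with an adjusted p of 0.331.

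**Figure D4:**
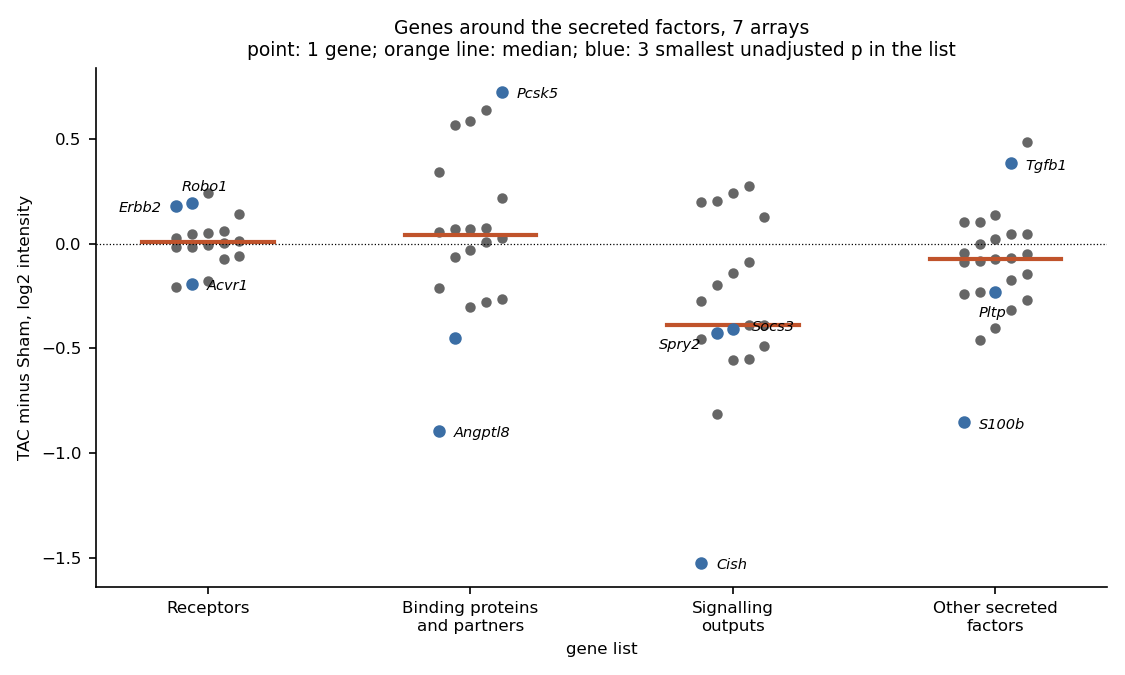
TAC minus Sham on the log2 intensity scale (vertical axis) of the genes tested in 4 lists around the secreted factors (horizontal axis), from 7 arrays. Each point is 1 gene, the orange lines are medians, and blue points are the 3 genes with the smallest unadjusted p of each list. The receptors lie close to 0, and the median of the signalling outputs is -0.39.

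Taken list by list, 18 of 24 receptor genes of the 9 factors were tested, of which 10 had a higher and 8 a lower TAC mean, with a median difference of 0.0096. None passed the adjusted threshold, and 1 was lower at an unadjusted p under 0.05. This was Acvr1, a type I receptor for bone morphogenetic proteins, at 2.20, 2.28 and 2.17 in Sham and at 1.94, 2.09, 2.02 and 2.05 in TAC, a difference of -0.19 ± 0.080 (SE) with an adjusted p of 0.384. Erbb2, the partner of the neuregulin receptors, differed by 0.18 ± 0.10. Erbb3 and Erbb4, which bind neuregulins, Gfral, the receptor of Gdf15, Robo2 and Bmpr1b were not well above background on any array.

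Of 23 binding proteins and partners, 20 were tested, 12 with a higher and 8 with a lower TAC mean and a median of 0.044. At an unadjusted p under 0.05, 1 was higher, Pcsk5, and 3 were lower, among them Angptl8 and Nog, and none passed the adjusted threshold. Nog, the secreted antagonist noggin of bone morphogenetic proteins, differed by -0.28 ± 0.11 (SE) with an adjusted p of 0.358.

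The list of signalling outputs is not confined to the receptors of the secreted factors. It also holds Ghr, the growth hormone receptor, and Cish and Socs2, which growth hormone induces. Of its 20 genes, 19 were tested, 5 with a higher and 14 with a lower TAC mean. Their median was -0.39, against -0.032 over all probes, and 44.2% of all probes had a higher TAC mean. At an unadjusted p under 0.05, 4 of the 19 were lower, Cish, Spry2, Socs3 and Smad6, against 8.43% of all probes. None passed the adjusted threshold, the smallest adjusted p being 0.247. Spry2, a feedback inhibitor of growth factor signalling, was at -3.58, -4.11 and -3.69 in Sham and at -4.21, -4.16, -4.39 and -4.12 in TAC. The difference was -0.42 ± 0.15 (SE). Spry2 was dim, well above background on 6 of the 7 arrays and not on TAC 3. Smad6, an inhibitor of bone morphogenetic protein signalling, differed by -0.49 ± 0.17. On the arrays, the mean of the list relative to the Sham mean was 0.041, 0.069 and -0.11 for Sham replicates 2 to 4. It was -0.50, -0.11, -0.11 and -0.47 for TAC replicates 1 to 4, so that TAC 2 and TAC 3 were level with Sham 4. The mean of the 11 brown adipocyte markers on TAC replicates 1 to 4 was -1.42, -0.32, -0.084 and -0.65, also lowest on TAC 1 and TAC 4. Its part in the values of the list was not tested. The median of the signalling list was -0.18 without TAC 1, -0.25 without Sham 3, -0.18 with normexp background correction, -0.15 with array weights and -0.25 in the table of 8 arrays. In that table with TAC 1 left out it was -0.10.

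Of 30 other secreted factors of brown fat, 25 were tested, 8 with a higher and 17 with a lower TAC mean and a median of -0.073. None passed the adjusted threshold, and S100b and Pltp were lower at an unadjusted p under 0.05. S100b, a calcium-binding protein that brown adipocytes and Schwann cells make and that promotes sympathetic innervation, was at 5.17, 5.69 and 5.18 in Sham and at 3.83, 4.55, 4.57 and 5.01 in TAC, a difference of -0.85 ± 0.28 (SE) with an adjusted p of 0.317. In the table of 8 arrays Sham 1, at 4.75, fell among the TAC values. The summed level of 5 Schwann cell markers was 99.5 to 122 in Sham and 80.9 to 134 in TAC, and its part in the S100b values was not tested. Pltp, the phospholipid transfer protein, differed by -0.23 ± 0.077 with an adjusted p of 0.324. Its TAC arrays all lay below Sham, in 7 and in 8 arrays, as did 10.5% and 6.30% of all probes tested. Tgfb1, transforming growth factor beta 1, was at -0.58, -0.82 and -0.71 in Sham and at 0.07, -0.57, -0.30 and -0.47 in TAC, highest on TAC 1, a difference of 0.39 ± 0.16 with an adjusted p of 0.390.

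Finally, the genes whose pattern over the 7 arrays was most like that of each member were sought among 14979 genes. The measure was the root mean square difference of log2 deviations, each gene taken from its own mean over the 7 arrays. Angptl4 was closest to Vasn, which encodes the membrane protein vasorin, at a root mean square difference of 0.086 against a deviation of 0.40 for Angptl4 itself. The next was Dubr, a noncoding RNA, at 0.13. Nrg4 was closest to Exosc6 and Mob4, at 0.023 and 0.029. Igf1 was closest to Slc17a8 and Dpysl3, at 0.10 and 0.11, and Metrnl to Lpin3 and Tgfbi, at 0.037 and 0.042. Gdf15 was closest to Ubd and Tlr6, at 0.38 and 0.40, and Slit2 to Nemp2 and Ampd3, at 0.14 and 0.15. These are descriptions of likeness in 7 mice.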

How the data were processed

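The authors labelled total RNA with Cy3 and extracted the arrays with Agilent Feature Extraction 10.7.1.1, per the labels and file headers. The deposited scanner values are background-subtracted intensities on a linear scale, with flags for spots, and the deposited table of 8 arrays is those intensities over the 75th percentile of the array (on the 7 shared arrays every probe above 100 units was within 1% of a constant multiple). Control and outlier spots were left out, log2 intensities were set relative to the 75th percentile of their array, and spots of a probe were averaged. TAC and Sham were compared with limma 3.58.1 in R 4.3.3 (lmFit, eBayes, Benjamini-Hochberg adjustment over 33359 probes), which was tested on simulated data. The brightest probe stands for a gene in lists. Symbols came from RefSeq (GRCm38.p6) by accession and named 28026 of 55681 probes. Coordinates are not given, since the array was designed on another assembly. Figures were drawn with matplotlib 3.10.9.

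The 9 genes and the lists around them were chosen with earlier results of these data known. Named are all members, the 3 genes with the smallest unadjusted p of each list and any past the threshold, and the 2 genes nearest to each member. Nog, Smad6, Socs2, Ghr, Lpl, Gpihbp1, Lmf1, Furin, Bmp8a, the binding proteins of Igf1 and the other receptors fall outside this rule and were chosen after their values were seen. Some genes that the rule gives are not reported here. The number of arrays limits the precision, and p-values measure the spread between these mice on 1 slide. Alternatives were normexp background correction (offset 50), median centring, quantile normalization, the table of 8 arrays or of the same 7, no filter or a filter on all arrays, outlier spots kept, a variance trend, array weights, the methods' t-test, a replicate block, leaving out each array, and averaging the probes of a gene.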

Additional observations from a re-analysis of the deposited data

Results flagged for a closer look

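In the table of 8 arrays, Sham 2 had a lower Angptl4 level (7.49) than the other 3 Sham arrays (7.89 to 7.96), and its gap to the nearest of them was 0.845 of the range of the group, above Dixon's critical value at 95%. It was the only such array among 28 groups of 4 looked at, where chance gives about 1 in 20. Without Sham 2, the Angptl4 difference over 7 arrays was 0.52 on the log2 scale.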

How the results depend on the processing

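In all 22 alternatives the number of member probes past the adjusted threshold stayed at 0 in each direction. Angptl4 kept its direction throughout, from 0.52 to 0.80 on the log2 scale, with unadjusted p from 0.000534 to 0.0270 and adjusted p from 0.154 to 0.599. At an unadjusted p under 0.05, the second Nrg4 probe was lower also with normexp, median centring and a variance trend. Gdf15 and the dimmest Igf1 probe were lower at that level in the table with TAC 1 left out. With the replicate block over 7 arrays the dimmest Igf1 probe was lower at that level too, at -0.24. Of 214 member differences under alternatives, 198 kept their sign and 16, in 7 probes, did not. Gdf15 was 0.086 with normexp. Over the 8 arrays of the table, whether or not the replicate block was used, the second and the third Igf1 probe were at -0.0013 and -0.013. With TAC 1 left out of that table, the first 3 Igf1 probes were at -0.14, -0.19 and -0.24. With each array left out in turn, Gdf15 ran from -0.95 to 0.41, the brightest Igf1 probe from 0.14 to 0.52, Slit2 from -0.057 to 0.42, Metrnl from -0.17 to 0.045, the third Igf1 probe from -0.043 to 0.31 and the fourth from -0.24 to 0.050. The cause was not tested.

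Deviations of same-numbered arrays correlated at 0.0017, -0.025 and -0.021 over 7 arrays. In the table of 8 they correlated at 0.27, 0.020, 0.057 and 0.019 for replicates 1 to 4. Such correlations cannot show whether same-numbered mice were paired, and the main comparison used no pairs. With the replicate block over 7 arrays, which leaves TAC 1 without a partner, Angptl4 was 0.63 with an adjusted p of 0.383 and the third Igf1 probe was -0.043. In all probes the block changed the number lower at an unadjusted p under 0.05 from 2813 to 2480. Among all probes, the methods' t-test gave 1602 higher and 2586 lower at that level and 0 after adjustment, and limma without TAC 4 gave 6 higher and 1 lower after adjustment, no member among them. Low signal limits Gdf15, Slit2, Bmp8b, Fgf21 and Il6 most.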
